A study of Mus musculus with 4 samples.

Results

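The 10 genes described here encode the machinery that presents peptides on MHC class I molecules and were chosen by gene symbol. They are the heavy chains H2-K1, H2-D1 and H2-T23, the shared light chain B2m, the peptide transporter subunits Tap1 and Tap2, the loading factor Tapbp, the immunoproteasome subunits Psmb8 and Psmb9, and the transcriptional regulator Nlrc5. Each symbol was listed once among the 55450 genes of the deposited matrices, of which 31008 had at least 1 unique molecular identifier (UMI, a tag that counts a captured transcript once) in a kept cell.

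Nonparenchymal liver cells were profiled by single-cell RNA sequencing in 4 groups, each with 1 droplet library made from 1 mouse. In the TAA group intraperitoneal thioacetamide, a hepatotoxin used to produce fibrosis, was given over 12 weeks. Celecoxib by gavage was added to that course from week 5, at 7.5 mg/kg in TAA+C7.5 and at 30 mg/kg in TAA+C30. The control mouse received normal saline. All 4 mice were wild-type C57B6 animals of 18 to 20 weeks, and all livers were dissociated enzymatically, cleared of red cells by lysis and depleted of most hepatocytes by a slow spin. Celecoxib inhibits cyclooxygenase-2, the inducible enzyme of prostaglandin synthesis. Because a group was a single mouse, differences had no replicate check and no test was run on them, and every comparison is between libraries. Intervals in parentheses are exact 95% intervals (Poisson for levels, conditional binomial for ratios) and cover counting error only.

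MHC class I molecules carry short peptides from proteins made inside the cell to its surface, where CD8 T cells read them and inhibitory receptors of NK cells sense the molecules themselves. The immunoproteasome cuts proteins into peptides, the transporter moves the peptides into the endoplasmic reticulum, tapasin holds the transporter close to the empty heavy chain, and the heavy chain leaves for the surface once it has bound peptide and light chain. Most nucleated cells make class I molecules at some level, and interferon-gamma raises most genes of the pathway, whereas class II molecules are largely limited to professional antigen-presenting cells.

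By the GENCODE M21 annotation of GRCm38 (mm10) 8 of the 10 genes lie in or beside the MHC region of chromosome 17, at 33996017 to 34000347 for H2-K1, 35262730 to 35267499 for H2-D1, 36029773 to 36032855 for H2-T23 and 33915899 to 33929292 for Tapbp. Between H2-K1 and H2-D1 lie Psmb9 at 34181987 to 34187764, Tap1 at 34187553 to 34197225, Psmb8 at 34197721 to 34201454 and Tap2 at 34203527 to 34216321. B2m lies on chromosome 2 at 122147686 to 122153083, and Nlrc5 on chromosome 8 at 94434356 to 94527272. Psmb9 and Tap1 run in opposite directions and overlap by 212 bases, on opposite strands. Tapbp overlaps Zbtb22 on the same strand by 3422 bases, so that reads in that stretch may not be told apart. Zbtb22 had 1801 UMIs in the kept cells against 26642 for Tapbp. H2-K1, H2-D1 and the H2-Q genes resemble each other in sequence, and how reads that match several of them were counted is not given in the sources used here, so values of single heavy chains carry that uncertainty.

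Promoters are shown for the classical heavy chains, which match the interferon-type pattern searched, for the light chain, for Psmb8, and for the pair that shares its upstream sequence. H2-T23, which held a CCAAT box alone of the motifs searched, and Tapbp are not shown. Each is the 250 bases before the RefSeq start (GRCm38.p6), 5′ to 3′ in the direction of the gene, with motif matches in capitals, and the last sequence is the stretch common to the Psmb9 and Tap1 windows.
H2-K1, chr17:34000348-34000597, minus strand: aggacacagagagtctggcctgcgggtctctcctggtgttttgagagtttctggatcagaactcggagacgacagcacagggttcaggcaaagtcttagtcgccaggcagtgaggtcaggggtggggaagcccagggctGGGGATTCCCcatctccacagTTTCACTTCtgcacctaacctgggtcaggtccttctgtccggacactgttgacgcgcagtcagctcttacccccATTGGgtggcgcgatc
H2-D1, chr17:35262844-35263093, plus strand: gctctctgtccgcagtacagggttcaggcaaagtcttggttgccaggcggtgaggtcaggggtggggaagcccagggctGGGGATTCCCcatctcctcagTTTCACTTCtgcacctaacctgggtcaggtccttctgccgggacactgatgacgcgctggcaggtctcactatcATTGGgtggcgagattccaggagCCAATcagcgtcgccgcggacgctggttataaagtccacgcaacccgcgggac
B2m, chr2:122147437-122147686, plus strand: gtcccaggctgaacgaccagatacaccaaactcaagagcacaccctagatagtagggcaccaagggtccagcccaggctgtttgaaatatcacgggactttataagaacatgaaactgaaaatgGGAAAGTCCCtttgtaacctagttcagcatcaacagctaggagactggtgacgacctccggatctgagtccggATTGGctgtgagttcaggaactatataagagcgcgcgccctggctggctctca
Psmb8, chr17:34197945-34198194, plus strand: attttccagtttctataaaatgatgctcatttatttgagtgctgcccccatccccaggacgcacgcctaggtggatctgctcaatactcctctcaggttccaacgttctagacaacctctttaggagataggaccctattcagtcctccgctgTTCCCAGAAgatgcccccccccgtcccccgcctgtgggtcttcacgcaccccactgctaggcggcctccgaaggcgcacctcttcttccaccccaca
Psmb9 to Tap1, chr17:34187331-34187555, plus strand: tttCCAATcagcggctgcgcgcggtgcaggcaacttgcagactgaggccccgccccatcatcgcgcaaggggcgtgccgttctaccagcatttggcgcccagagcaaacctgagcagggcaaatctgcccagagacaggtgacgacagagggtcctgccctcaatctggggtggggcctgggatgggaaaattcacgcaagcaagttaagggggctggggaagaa

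The motifs searched on both strands were the interferon-stimulated response element (GAANNGAAA), the kappaB site (GGG, any 2 bases, TT, any base, CC), the CCAAT box (CCAAT) and the gamma-activated site (TTCNNNGAA), and no match overlapped another in the sequences shown. In windows of the same length they occurred in 6.34%, 4.0%, 34.5% and 7.18% of 27025 promoters. The 2 heavy chain promoters each held the response element in the same letters, TTTCACTTC, behind the same kappaB letters, GGGGATTCCC. These began 90 and 111 bases before the start of H2-K1, and 150 and 171 bases before that of H2-D1. The GENCODE annotation starts H2-D1, Psmb8 and Psmb9 further upstream than RefSeq does, so that these windows lie inside the GENCODE gene. The stretch common to Psmb9 and Tap1 thus lies inside the GENCODE Psmb9 gene. B2m held a kappaB match (GGAAAGTCCC) 126 bases before its start and a CCAAT box, and Psmb8 held a gamma-activated site match (TTCCCAGAA) 97 bases before its start. The stretch common to Psmb9 and Tap1 spanned 225 bases and held 1 CCAAT box and none of the other motifs. A match is a run of letters and was not tested for binding.

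After filters, 6444, 5957, 6064 and 5668 cells were kept in the TAA, TAA+C7.5, TAA+C30 and control libraries. Median UMIs per cell were 4553 in TAA, 1971 in TAA+C7.5, 3101.5 in TAA+C30 and 3363.5 in control. Cells fell into 16 classes named from markers, and a class was compared where each of the libraries held 50 or more of its cells, which gave 11, 12 and 11 classes for the 3 comparisons. In the cells kept, 62 of 24071 distinct barcodes occurred in more than 1 library. Fewer cells of a type and less RNA per cell cannot be told apart for a whole library, so levels are given per class, as UMIs per 1000000 UMIs of that class (CPM).

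The share of all UMIs taken by the 10 genes together was 0.811% in TAA, 0.748% in TAA+C7.5, 0.706% in TAA+C30 and 0.803% in control. In whole libraries Psmb8 stood at 410.3 CPM in TAA, 359.7 in TAA+C7.5, 421.0 in TAA+C30 and 157.3 in control, and Tap1 at 135 CPM in TAA, 118 in TAA+C7.5, 124 in TAA+C30 and 70.5 in control. Both were lowest in control, where endothelial cells, a class low in these genes, made up 51.0% of cells against 3.65% in TAA, 1.14% in TAA+C7.5 and 0.297% in TAA+C30.

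The level of these genes differed widely between cell classes. Conventional dendritic cells 1 (cDC1), the type specialised in cross-presenting captured antigen to CD8 T cells, had the highest Psmb8, Psmb9, Tap1 and Tap2 in TAA, at 1105, 593, 308 and 174 CPM. The same class was highest for all 4 genes in TAA+C7.5 and in TAA+C30 as well, and control had too few such cells (34) to be ranked. Plasmacytoid dendritic cells (pDC), the main source of type I interferon, had the highest H2-T23 in every library, at 641 CPM in TAA, 866 in TAA+C7.5, 792 in TAA+C30 and 739 in control. T cells had the highest Nlrc5, at 70.2 CPM in TAA, 87.7 in TAA+C7.5, 70.9 in TAA+C30 and 114.3 in control, followed in every library by the class of NK cells and innate lymphoid cells, called NK or ILC here, with 47.95 CPM in TAA, 59.6 in TAA+C7.5, 47.8 in TAA+C30 and 75.8 in control, whose intervals overlapped those of T cells. NK or ILC were also highest for H2-D1 in all 4 libraries and for H2-K1 in all but control, where Kupffer cells stood at 3956 CPM and NK or ILC at 3532 CPM. For H2-D1 their interval overlapped that of the next class in TAA, with 2595 CPM beside 2514 CPM in neutrophils, and in control, with 2512 CPM beside 2409 CPM in monocytes or macrophages.

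Hepatocytes, which carry little class I on their surface at rest, stood at the low end in the 2 libraries with enough of them. In TAA their levels were the lowest of 14 classes for 9 of the 10 genes, the exception being Nlrc5, which was lowest in plasma cells. Between the highest and lowest class of the TAA library the range was 20.5-fold for Tap1, 19.4-fold for Tap2 and 15.04-fold for Psmb8, but 3.87-fold for B2m and 6.14-fold for H2-K1. The Tap1 and Tap2 levels of TAA hepatocytes rested on 10 and 6 UMIs. Without a ranked hepatocyte class, Tap1 spanned 5.72-fold in TAA+C7.5 and 7.26-fold in TAA+C30, and Tap2 3.71-fold and 4.03-fold. H2-K1 spanned 5.61-fold and 5.46-fold there, and B2m 2.70-fold and 2.66-fold. The transporter and immunoproteasome genes thus spread over classes more widely than the light chain did. Tap2, however, spread less than H2-K1 in the celecoxib libraries.

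**Figure D1:**
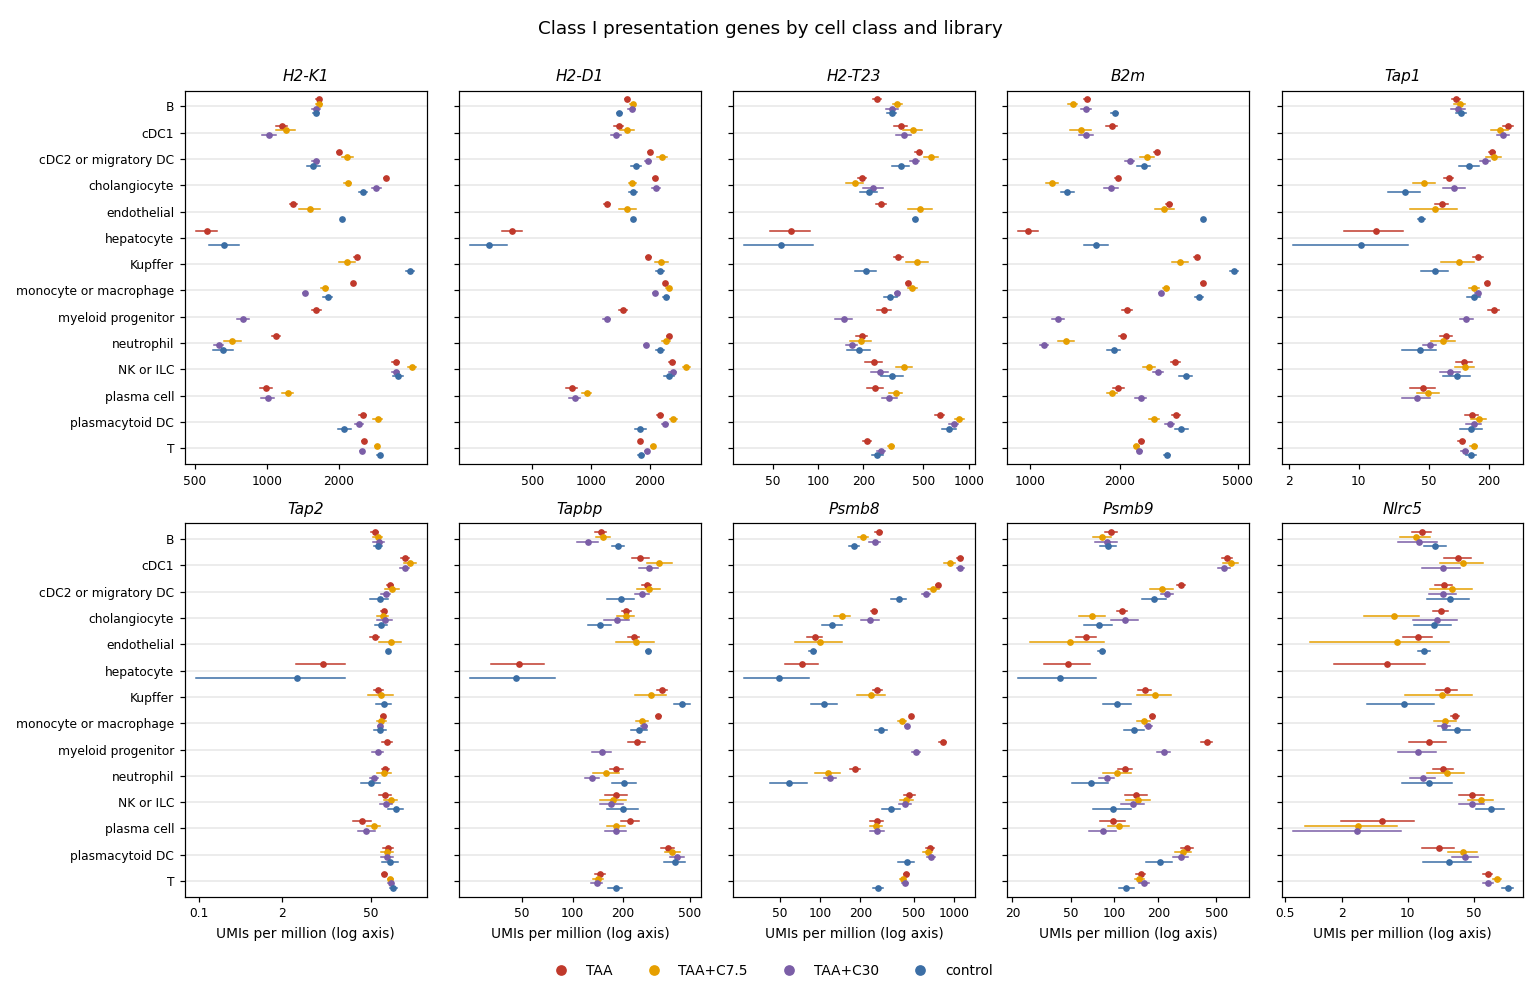
Level of each of the 10 genes (UMIs per 1000000 UMIs of the class, log axis) by cell class and library, with exact Poisson 95% intervals as bars, for classes with at least 50 cells. Psmb8 spans 73.5 CPM in hepatocytes to 1105 CPM in cDC1 of the TAA library, whereas B2m spans 984 to 3809 CPM there.

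Over the 48 combinations of class and library with at least 50 cells, Psmb8 and Psmb9 were the most alike of all pairs of the 10 genes, with a Pearson correlation of 0.9 on log2(CPM + 10). Tap1 followed with 0.875 to Psmb8 and 0.86 to Psmb9, and H2-T23 with Tapbp had 0.807. The least alike pair was B2m and Psmb9, at 0.149. These points share libraries and depth, so the values are descriptions and have no p-value. Among 6965 other genes, those most like the mean of the 10 over the same combinations were Rnf166 (0.844), Gltp (0.826), Coro2a (0.803), AI413582 (0.79) and Parp8 (0.788).

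The comparison of TAA with control asks how presentation genes differ in cells of the fibrotic liver. Psmb8, the immunoproteasome subunit that replaces Psmb5, was above control in all 11 classes, and Psmb9, which replaces Psmb6, in 10 of 11. Tap1 was above control in 9 of 11 classes, whereas H2-K1, H2-D1 and H2-T23 were above it in 6, 7 and 5. With scaling by trimmed means these counts were 11, 10 and 9 for Psmb8, Psmb9 and Tap1, and 7, 9 and 6 for the heavy chains. Class medians over all genes, without that scaling, were -0.11 to 0.09 on the log2 scale. Of 108 pairs of a gene and a class that could be measured, 17 were at least 1.5-fold higher in TAA (15.7%) and 6 at least 1.5-fold lower (5.56%). Over all genes and the same classes, 7.62% of pairs were higher and 10.0% lower by that rule. All 17 and all 6 ratios had intervals that did not include 1. Scaling by trimmed means of genes, which moved the log2 ratios by -0.04 to 0.28 depending on the class, gave 33 higher and 4 lower. Of the 17 higher pairs 9 stayed past 1.5-fold in every alternative that could be run, and of the 6 lower pairs none did. One alternative used the same cluster weights in both libraries. Kupffer cells, cholangiocytes and pDC had 1 shared cluster each, so it left their ratios unchanged by construction.

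Psmb8 made up 7 of the 17 higher pairs. In neutrophils it stood at 180.9 CPM in TAA against 58.9 CPM in control, 3.07-fold higher (2.24 to 4.31). In Kupffer cells, which are macrophages resident in the liver, it stood at 267 CPM in TAA against 107 CPM in control, 2.50-fold higher (1.98 to 3.18). In cholangiocytes, the bile duct epithelium, it stood at 251 CPM in TAA against 123 CPM in control, 2.04-fold higher (1.71 to 2.45). The other 4 classes past 1.5-fold were conventional dendritic cells 2 or migratory dendritic cells (cDC2) at 1.94-fold, monocytes or macrophages at 1.69-fold, T cells at 1.63-fold and B cells at 1.53-fold. With the same cluster weights in both libraries the log2 ratio was 0.43 in B cells and 0.47 in monocytes or macrophages, under the 1.5-fold limit. The smallest ratio of Psmb8 was 1.04, in endothelial cells, with 91.7 CPM in TAA against 87.8 CPM in control. Psmb9 was past 1.5-fold in neutrophils, at 118.3 CPM in TAA against 68.7 CPM in control, and in pDC, at 315 CPM in TAA against 204 CPM in control.

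The ordinary proteasome also differed in the same direction. Its 14 listed subunits form the core that all cells use, and 139 of their 154 pairs were above control. Class medians were 0.09 to 0.63 on the log2 scale, beside -0.11 to 0.09 over all genes. By the 1.5-fold rule 19 pairs were higher (12.3%) and none was lower, beside 7.62% higher and 10.0% lower over all genes. Psmb8 divided by Psmb5 gave 4.17 UMIs per UMI in TAA neutrophils (3.43 to 5.1) against 1.75 in control (1.04 to 3.02), a quotient to be read between libraries, since UMIs of different genes are not on a common scale. In cholangiocytes the ratio was 1.63 (1.49 to 1.78) in TAA against 0.877 (0.692 to 1.11) in control. In T cells it was 4.68 (4.24 to 5.16) in TAA against 4.48 (3.72 to 5.42) in control, with overlapping intervals. In B cells it was 3.42 (3.06 to 3.84) in TAA against 3.64 (3.02 to 4.41) in control, again overlapping. In monocytes or macrophages it was 5.67 (5.30 to 6.06) in TAA against 4.03 (3.18 to 5.16) in control. In Kupffer cells it was 3.62 (3.05 to 4.32) in TAA against 3.04 (1.94 to 4.88) in control, with overlapping intervals. In cDC2 it was 7.27 (6.53 to 8.11) in TAA against 4.76 (3.5 to 6.59) in control, with intervals that barely overlapped. The ratio was above control in 9 of 11 classes, with a median quotient of TAA over control of 1.12. The share that Psmb8 took beside Psmb5 was therefore above control, with intervals apart, in neutrophils, cholangiocytes and monocytes or macrophages. In T, B and Kupffer cells both genes stood higher together.

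Psmb9 was set beside Psmb6, the subunit it replaces, in the same way. The ratio of their UMIs was above control in 6 of 11 classes, with a median quotient of TAA over control of 1.03. In neutrophils it was 3.15 (2.53 to 3.93) in TAA against 4.45 (2.29 to 9.50) in control, and in Kupffer cells 1.13 (0.970 to 1.32) in TAA against 1.78 (1.22 to 2.62) in control, with overlapping intervals in both. In endothelial cells it was 0.611 (0.5 to 0.744) in TAA against 0.815 (0.751 to 0.886) in control, and these intervals did not overlap.

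**Figure D2:**
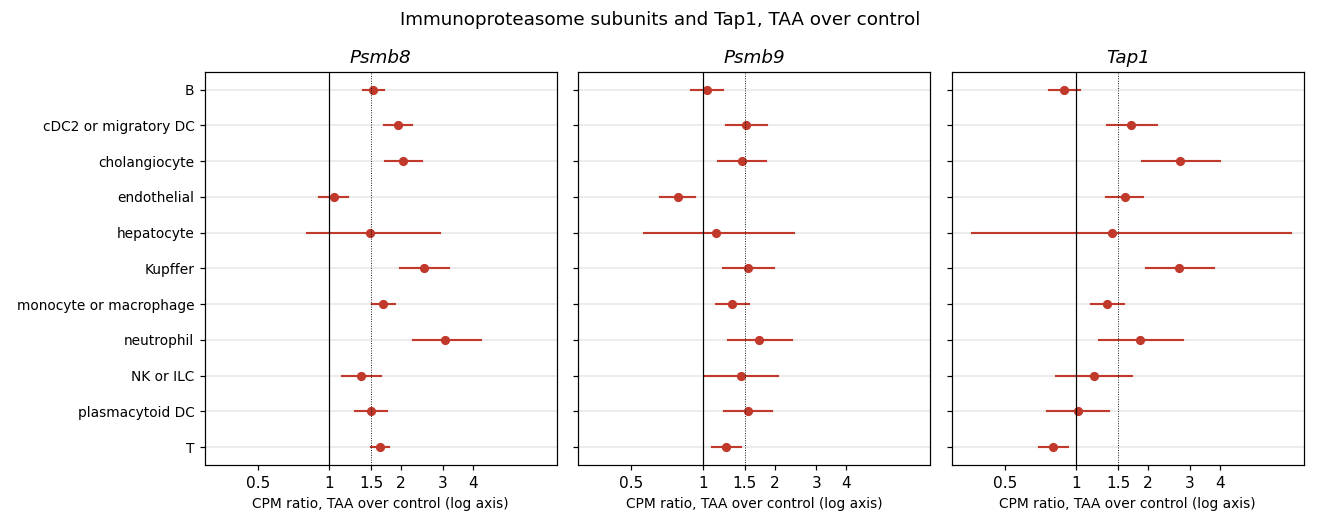
CPM ratio of TAA over control (log axis) for Psmb8, Psmb9 and Tap1 in 11 cell classes, with exact 95% counting intervals as bars, a solid line at 1 and a dotted line at 1.5. All 11 points of Psmb8 lie at or right of 1.04, and neutrophils lie farthest right at 3.07.

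Among the transporter and loading genes, Tap1 was past 1.5-fold in 4 classes. It stood at 78.6 CPM in TAA cholangiocytes against 28.9 CPM in control, 2.71-fold higher (1.89 to 4.02). After thinning to 1000 UMIs per cell the cholangiocyte log2 ratio was 0.52 against 1.19 at full depth, under the 1.5-fold limit. In Kupffer cells it stood at 154.7 CPM in TAA against 57.5 CPM in control, 2.69-fold higher (1.96 to 3.77). Neutrophils and cDC2 followed at 1.84-fold and 1.70-fold. Tap2, its partner in the transporter, was past 1.5-fold higher in neutrophils alone, at 84.1 CPM in TAA against 50.5 CPM in control, and past 1.5-fold lower in endothelial cells, at 57.9 CPM in TAA against 93.6 CPM in control. With the same cluster weights in both libraries the neutrophil log2 ratios were 0.23 for Tap1 and 0.27 for Tap2, against 0.74 and 0.64, and that of endothelial Tap2 was -0.14 against -0.61. The ratio of Tap1 to Tap2 was above control in 10 of 11 classes. Tapbp, which encodes tapasin, was within 1.5-fold in all 11 classes.

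The heavy chains and the light chain differed in both directions. H2-K1 stood at 1093 CPM in TAA neutrophils against 658 CPM in control, 1.66-fold higher (1.51 to 1.84). In Kupffer cells H2-K1 was at 2371 CPM in TAA against 3956 CPM in control, a ratio of 0.599 (0.573 to 0.627). In endothelial cells it was at 1291 CPM in TAA against 2059 CPM in control, a ratio of 0.627 (0.605 to 0.650). H2-D1 stayed within 1.5-fold in every class, with ratios of 0.732 to 1.31. H2-T23, a nonclassical heavy chain that presents leader peptides to the receptor pair Klrd1 and Klrc1, was 1.65-fold higher in Kupffer cells, at 341 CPM in TAA against 206 CPM in control. In endothelial cells H2-T23 had a ratio of 0.597, at 263 CPM in TAA against 440 CPM in control, but a log2 ratio of 0.22 with the same cluster weights in both libraries. B2m was below control in 7 of 11 classes, but in 5 with scaling by trimmed means, and it was past 1.5-fold in hepatocytes, at 984 CPM in TAA against 1666 CPM in control.

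Kupffer and endothelial cells differed between these libraries in more than treatment. Kupffer cells of TAA had a median of 12764 UMIs per cell and those of control 1399, with a mitochondrial share of 2.74% against 9.4% and endothelial markers at 424.5 CPM against 2159 CPM. Endothelial cells of TAA were mostly in clusters led by Ednrb and those of control in a cluster led by Cyp26b1, Ehd3 and Kdr. In the 1 endothelial cluster with at least 20 cells of each library, led by Fam167b, H2-K1 stood at 1151 CPM in TAA against 1574 CPM in control, and B2m at 3314 CPM against 3362 CPM. The part of these differences in the lower H2-K1 was not tested.

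Nlrc5, the regulator that drives class I gene transcription in lymphocytes, was lower in T cells of TAA. It stood at 70.2 CPM in TAA T cells against 114.3 CPM in control, a ratio of 0.614 (0.523 to 0.721), while Psmb8 in the same cells was 1.63-fold higher. The log2 ratio of Nlrc5 was -0.63, but -0.47 with scaling by trimmed means and -0.42 with classes from marker scores, both under the 1.5-fold limit. Within T cell clusters Nlrc5 was at 82.0 CPM in TAA against 148.1 CPM in control for the cluster led by Klrc1 and Ccl5. For the cluster led by Lef1 and Dapl1 it was at 47.0 CPM in TAA against 83.2 CPM in control. The third shared cluster, led by Il17a and Icos, had 71.2 CPM in TAA against 90.7 CPM in control, where it held only 53 cells. The TAA value was thus lower in all 3, but intervals for these clusters are not given here. In Kupffer cells Nlrc5 rested on 59 UMIs in TAA and 7 in control, at 25.9 CPM against 9.14 CPM.

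**Figure D3:**
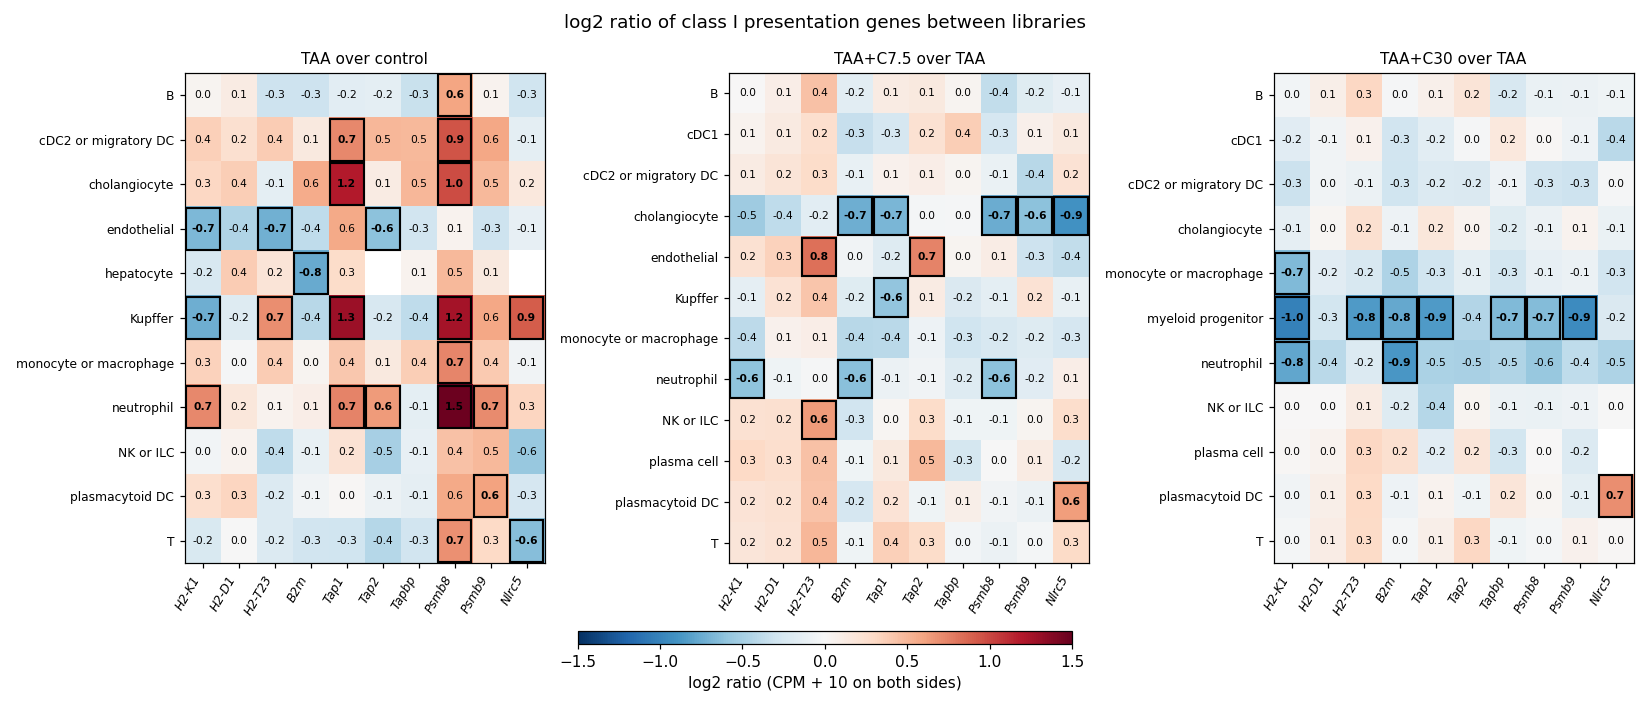
The log2 ratio of each gene (columns) in each cell class (rows), computed on CPM + 10, for TAA over control, TAA+C7.5 over TAA and TAA+C30 over TAA, with boxes around values past 1.5-fold and blanks where fewer than 10 UMIs were counted. The Psmb8 column of the left panel is above 0 in all 11 classes, and boxes in the middle and right panels gather in cholangiocytes, neutrophils and myeloid progenitors.

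The lower celecoxib dose was compared with TAA, which also serves the higher dose, so the 2 comparisons share the TAA library. Most pairs lay close to TAA: of 120 measured, 4 were at least 1.5-fold higher (3.33%) and 9 at least 1.5-fold lower (7.5%), where 4.57% and 5.24% of all pairs of a gene and a class passed. B2m was below TAA in 12 of 12 classes and Psmb8 in 11 of 12, mostly by little, with medians of -0.22 and -0.12 on the log2 scale. H2-T23 was above TAA in 10 of 12 classes, with a median of 0.42. Class medians over all genes were -0.05 to 0.06.

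Cholangiocytes held 5 of the 9 lower pairs and had none of the 10 genes above TAA. In this class 2.25% of all 14071 genes measured were at least 1.5-fold lower. Psmb8 was at 146 CPM in TAA+C7.5 against 251 CPM in TAA, a ratio of 0.582 (0.5 to 0.675), and control had 123 CPM. Tap1 was at 44.9 CPM in TAA+C7.5 against 78.6 CPM in TAA, a ratio of 0.571 (0.430 to 0.747), and control had 28.9 CPM. B2m was at 1183 CPM in TAA+C7.5 against 1969 CPM in TAA, a ratio of 0.601 (0.570 to 0.633), and control had 1333 CPM. For these 3 genes the lower dose thus lay nearer to control than to TAA. Psmb9 was at 70.2 CPM in TAA+C7.5 against 113.0 CPM in TAA, and Nlrc5 at 7.24 CPM (10 UMIs) against 22.3 CPM (122 UMIs). The median of the 10 genes was -0.57 on the log2 scale, beside 0.01 over all genes.

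Other antigen presentation genes of cholangiocytes were lower as well. Of 10 class II genes 7 were at least 1.5-fold lower in TAA+C7.5, with Cd74, the invariant chain, at 470 CPM against 1080 CPM in TAA, and H2-Eb1 at 101 CPM against 261 CPM. Socs3, an inhibitor of cytokine signalling, was at 149.8 CPM against 42.5 CPM, 3.53-fold higher (2.91 to 4.27). Subunits of the ordinary proteasome did not share the lower level: 11 of 14 were above TAA. Psmb8 divided by Psmb5 gave 0.740 (0.614 to 0.891) in TAA+C7.5 against 1.63 (1.49 to 1.78) in TAA.

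**Figure D4:**
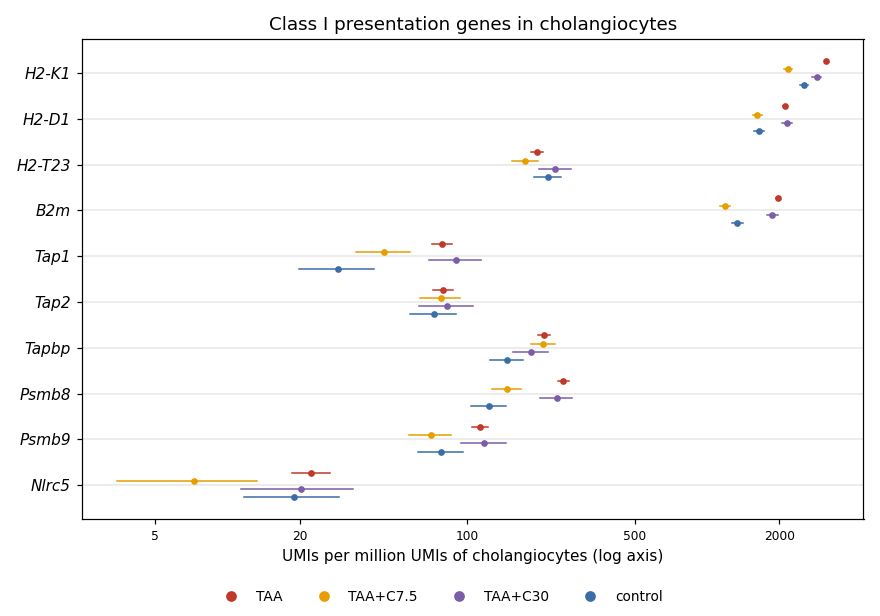
Levels of the 10 genes in cholangiocytes of each library (UMIs per 1000000 UMIs of the class, log axis), with exact Poisson 95% intervals as bars. Psmb8 stands at 251 CPM in TAA, 146 in TAA+C7.5, 235 in TAA+C30 and 123 in control, so that TAA and TAA+C30 lie close together.

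The higher dose did not show this in cholangiocytes. There Psmb8 was at 235 CPM in TAA+C30 against 251 CPM in TAA, B2m at 1870 CPM against 1969 CPM and Tap1 at 89.3 CPM against 78.6 CPM, and the median of the 10 genes was -0.02. The cells numbered 301 in TAA, 155 in TAA+C7.5, 78 in TAA+C30 and 85 in control. Markers of other cells were also read in the cholangiocytes. Macrophage markers summed to 120.3 CPM in TAA, 167.2 in TAA+C7.5, 251.5 in TAA+C30 and 14.47 in control (of 9 markers all were detected but in control, with 3). Neutrophil markers summed to 473 CPM in TAA, 52.1 in TAA+C7.5, 525 in TAA+C30 and 28.9 in control (of 11 markers, 11 were detected in TAA, 9 in TAA+C7.5, 10 in TAA+C30 and 5 in control). Erythroid markers summed to 12.6 CPM in TAA, 1371 in TAA+C7.5, 18.9 in TAA+C30 and 257.8 in control. For scale, neutrophil markers summed to 170100 CPM in TAA neutrophils. In cholangiocytes they were higher in TAA and TAA+C30 than in TAA+C7.5 and control, the same split as for Psmb8, Tap1 and B2m. Erythroid markers were highest in TAA+C7.5. The part of RNA from other cells in the class I differences of cholangiocytes, also between TAA and control, was not tested. The difference held within the main cluster, led by Clu and Spp1, where Psmb8 was at 157.4 CPM in TAA+C7.5 against 251.1 CPM in TAA and B2m at 1283 CPM against 1969 CPM. After thinning to 1000 UMIs per cell the log2 ratio of B2m was -0.47, against -0.73 at full depth.

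In neutrophils of the lower dose H2-K1 was at 718 CPM against 1093 CPM in TAA, with 658 CPM in control. B2m was at 1321 CPM in TAA+C7.5 against 2045 CPM in TAA, with 1908 CPM in control, and Psmb8 at 114.3 CPM against 180.9 CPM, with 58.9 CPM in control. H2-K1 was therefore close to control, while B2m was below both. With the same cluster weights in both libraries the log2 ratios were -0.39 for H2-K1 and -0.47 for B2m, against -0.60 and -0.63. On the higher side, H2-T23 was at 371 CPM in TAA+C7.5 NK or ILC against 235 CPM in TAA, 1.58-fold higher (1.32 to 1.90). Nlrc5 was at 38.5 CPM in TAA+C7.5 pDC against 21.4 CPM in TAA, 1.80-fold higher (1.05 to 3.1). The other 2 higher pairs, H2-T23 and Tap2, were in endothelial cells, of which TAA+C7.5 had 68, and no endothelial cluster held at least 20 cells of both libraries.

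For the higher dose 10 of 109 measured pairs were at least 1.5-fold lower than in TAA (9.17%) and 1 was higher (0.917%), where 5.10% and 2.97% of all pairs passed. Neutrophils, cDC2, myeloid progenitors and monocytes or macrophages had all 10 genes below TAA. Over all genes the class medians were -0.19 to 0.03 on the log2 scale, and the share of all genes below TAA is not given here. With scaling by trimmed means, which moved the neutrophil log2 ratios by 0.42, H2-D1, H2-T23 and Psmb9 lay at or above 0 there, the neutrophil median of the 10 genes was -0.12 against -0.47, and 8 pairs over all classes were past 1.5-fold lower. H2-K1 divided by H2-D1 was below TAA in 11 of 11 classes, with quotients of 0.597 to 0.992.

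In monocytes or macrophages, the class that infiltrates injured liver, H2-K1 was at 1439 CPM in TAA+C30 against 2286 CPM in TAA, a ratio of 0.629 (0.616 to 0.643), with 1797 CPM in control. H2-D1 in the same cells was at 2113 CPM against 2373 CPM, so the 2 classical heavy chains were not lower to the same extent. The class holds 3 clusters in different proportions. In the cluster led by F13a1, with classical monocyte markers, H2-K1 was at 1568 CPM in TAA, 1234 in TAA+C7.5, 1091 in TAA+C30 and 1177 in control. In the cluster led by Ace, with non-classical monocyte markers, it was at 3153 CPM in TAA, 2313 in TAA+C7.5, 2551 in TAA+C30 and 2532 in control. In the cluster led by Ms4a7, C1qb and Gpnmb, with macrophage markers, it was at 2491 CPM in TAA, 2240 in TAA+C7.5, 2163 in TAA+C30 and 1933 in control. TAA was highest in all 3 clusters, and both doses lay at or near control in the monocyte clusters. With the same cluster weights in both libraries the log2 ratio was -0.33 rather than -0.66, so part of the class value lies in the mix of clusters, of which the F13a1-led one held 945 cells in TAA+C30 and 331 in TAA.

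Psmb8 was also highest in TAA and lowest in control in the monocyte clusters, at 601 CPM in TAA, 442 in TAA+C7.5, 455 in TAA+C30 and 279 in control in the F13a1-led cluster and 464 CPM in TAA, 324 in TAA+C7.5, 409 in TAA+C30 and 229 in control in the Ace-led cluster. In the Gpnmb-led macrophages Psmb8 was at 431 CPM in TAA, 393 in TAA+C7.5, 413 in TAA+C30 and 444.5 in control, with 29 cells in control. The ratio of TAA over control was 2.16 (1.84 to 2.55) in the F13a1-led cluster and 2.02 (1.63 to 2.53) in the Ace-led cluster. It was 0.97 (0.78 to 1.22) in the macrophages, an interval that included 1 and did not overlap those of the monocytes. B2m in the F13a1-led cluster was at 3073 CPM in TAA, 2113 in TAA+C7.5, 2262 in TAA+C30 and 2654 in control.

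**Figure D5:**
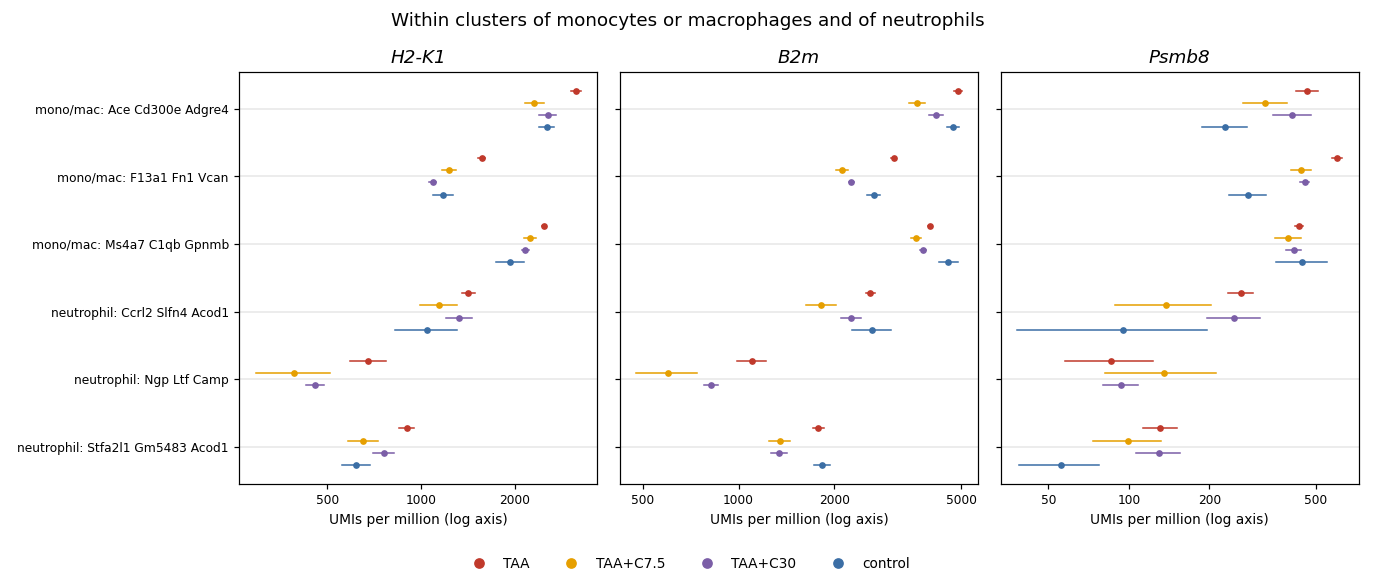
H2-K1, B2m and Psmb8 (UMIs per 1000000 UMIs of the cluster, log axis) in clusters of monocytes or macrophages and of neutrophils, by library, with exact Poisson 95% intervals as bars. In the F13a1-led and Ace-led monocyte clusters the TAA point lies to the right of the other 3 libraries for all 3 genes, and in the Ms4a7-led macrophages the 4 Psmb8 intervals overlap.

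Neutrophils of the higher dose had H2-K1 at 631 CPM against 1093 CPM in TAA, a ratio of 0.577 (0.546 to 0.611), and B2m at 1112 CPM against 2045 CPM, a ratio of 0.544 (0.522 to 0.567). In this class 14.7% of all genes measured were at least 1.5-fold lower, and 29.3% of those with a mean of at least 50 CPM. Neutrophils led by Ngp, Camp and Ltf, genes for granule proteins made by immature cells, accounted for 398 of 1118 neutrophils in TAA+C30 against 46 of 1141 in TAA. Neutrophil markers took 328200 CPM in TAA+C30 neutrophils against 170100 CPM in TAA, and the Ngp-led cluster had the lowest H2-K1 of the 3 neutrophil clusters in each library that held it. With the same cluster weights in both libraries the log2 ratios were -0.21 for H2-K1 and -0.31 for B2m, against -0.78 and -0.87, and with scaling by trimmed means they were -0.37 and -0.45. Within the cluster led by Stfa2l1, H2-K1 was at 759 CPM in TAA+C30 against 900 CPM in TAA, and B2m at 1339 CPM against 1782 CPM.

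Myeloid progenitors, 117 cells in TAA+C30 and 60 in TAA, held 7 of the 10 lower pairs, in a class where 11.0% of all genes measured were at least 1.5-fold lower. H2-K1 was at 795 CPM in TAA+C30 against 1610 CPM in TAA, a ratio of 0.494 (0.460 to 0.530), and Psmb9 at 217 CPM against 428 CPM, a ratio of 0.508 (0.442 to 0.583). H2-T23, B2m, Tap1, Tapbp and Psmb8 had ratios of 0.534 to 0.632, and H2-D1, Tap2 and Nlrc5 were within 1.5-fold. The cells had a median of 11848 UMIs in TAA+C30 and 21537.5 in TAA. After thinning to 1000 UMIs per cell the log2 ratios of H2-T23, Tapbp and Psmb8 were -0.20, -0.27 and -0.43, all within 1.5-fold. The cells differed in kind as well: class II genes were lower in 10 of 10 with a median of -2.96, markers of cDC2 summed to 88.8 CPM against 827 CPM and those of cDC1 to 211 CPM against 787 CPM, and neutrophil markers to 44220 CPM against 21820 CPM. All 7 cDC2 markers were detected in both libraries. The mix of progenitors and lower class I expression cannot be told apart here. The 1 higher pair was Nlrc5 in pDC, at 40.7 CPM in TAA+C30 against 21.4 CPM in TAA, 1.90-fold higher (1.14 to 3.22), with 27.4 CPM in control. Both doses had more Nlrc5 than TAA in pDC.

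In T cells all 10 genes were within 1.5-fold of TAA at both doses, and so were most genes measured there. Of all genes in T cells, 0.958% were at least 1.5-fold higher and 1.10% lower in TAA+C7.5, and 0.642% and 0.405% in TAA+C30. Psmb8 was at 441 CPM in TAA, 414 in TAA+C7.5, 432 in TAA+C30 and 271 in control, so both celecoxib libraries lay nearer to TAA than to control. The libraries differed in their mix of T cells, as the cluster led by Pdcd1 held 79 of 995 in TAA, 662 of 2074 in TAA+C7.5, 298 of 1381 in TAA+C30 and 8 of 505 in control. After thinning every cell to 1000 UMIs, the share of T cells with a UMI of Psmb8 was 34.1% in TAA, 31.7% in TAA+C7.5, 33.0% in TAA+C30 and 23.2% in control, beside 3.92% of hepatocytes in TAA and 1.32% in control, the class lowest in Psmb8. At full depth the T cell shares were 79.4% in TAA, 54.3% in TAA+C7.5, 64.2% in TAA+C30 and 61.8% in control, with medians of 4921 in TAA, 2201 in TAA+C7.5, 2794 in TAA+C30 and 4619 in control for the UMIs per T cell. T cells of the cluster led by Pdcd1 and Tox, genes of chronically stimulated cells, had more of the class I genes than those led by Lef1, a gene of naive cells. In TAA H2-K1 was at 3495 CPM in the Pdcd1-led cluster and 1894 CPM in the Lef1-led cluster, Psmb8 at 634 and 272 CPM, and Nlrc5 at 125.1 and 47.0 CPM, and the order was the same in TAA+C7.5 and TAA+C30.

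Genes around the 10 were described by lists that share the pathway, and their counts of pairs at least 1.5-fold higher or lower are set beside the shares over all genes. These were 7.62% higher and 10.0% lower for TAA against control, 4.57% and 5.24% for TAA+C7.5 against TAA, and 2.97% and 5.10% for TAA+C30 against TAA. Of other heavy chain genes, 19 of 113 pairs were higher in TAA than in control (16.8%) and 11 lower (9.73%). In TAA+C7.5 7 of 120 were higher than in TAA (5.83%) and 13 lower (10.8%), and in TAA+C30 4 of 110 were higher (3.64%) and 19 lower (17.3%). H2-T22 in monocytes or macrophages was at 122.9 CPM in TAA against 56.1 CPM in control, 2.19-fold higher (1.72 to 2.83). H2-Q7 in neutrophils was at 38.5 CPM in TAA+C7.5 and 34.0 CPM in TAA+C30 against 97.8 CPM in TAA, with 47.7 CPM in control. H2-Q6 in monocytes or macrophages was at 33.3 CPM in TAA+C30 against 92.7 CPM in TAA, with 72.4 CPM in control. H2-Q6 and H2-Q7 are near-identical, so how their reads were divided is uncertain. In Kupffer cells H2-M2 had 53 UMIs in TAA and 0 in control, while Cd1d1 and H2-M3 had ratios of 0.467 and 0.514.

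Of the genes for peptide supply and loading, 14 of 142 pairs were higher in TAA than in control (9.86%) and 12 lower (8.45%), near the shares over all genes. Psme1, a subunit of the proteasome activator, was at 401 CPM in TAA Kupffer cells against 206 CPM in control, and the aminopeptidase Lap3 at 84.4 CPM against 39.2 CPM. The chaperone Canx was at 105.5 CPM in TAA B cells against 200.6 CPM in control. Under celecoxib 1 of 156 pairs was higher (0.641%) and 3 lower (1.92%) at the lower dose, among them Psme1 in neutrophils at 74.6 CPM against 142.6 CPM in TAA. At the higher dose 6 of 143 were higher (4.20%) and 4 lower (2.80%), with Sec61b, a channel subunit, at 617 CPM in TAA+C30 monocytes or macrophages against 329.5 CPM in TAA.

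Among the regulators, 30 of 251 pairs were higher in TAA than in control (12.0%) and 20 lower (7.97%). In TAA+C7.5 17 of 276 were higher than in TAA (6.16%) and 16 lower (5.80%), near the shares over all genes, and in TAA+C30 7 of 250 were higher (2.80%) and 25 lower (10.0%). Irf7, which amplifies interferon responses, was at 148.0 CPM in TAA neutrophils against 29.4 CPM in control, 5.03-fold higher (3.25 to 8.21). Celecoxib neutrophils had less, 72.1 CPM in TAA+C7.5 and 93.6 CPM in TAA+C30. In monocytes or macrophages Irf7 was at 487 CPM in TAA, 296 CPM in TAA+C7.5, 253 CPM in TAA+C30 and 124 CPM in control. Ifng, the interferon that raises class I genes, was in NK or ILC at 202 CPM in TAA, 573 in TAA+C7.5, 453 in TAA+C30 and 344 in control. Its level there was lowest in TAA. Ifng of other classes is not given here, and the part of Ifng in the class I differences was not tested. Nfya, a subunit of the factor that binds CCAAT boxes, was at 27.0 CPM in TAA T cells against 56.5 CPM in control.

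The genes listed as receptors of class I gave few measured pairs, of which 3 of 45 were higher in TAA than in control (6.67%) and 9 lower (20.0%). Klra8, an activating NK receptor of the Ly49 family, was at 107.4 CPM in TAA NK or ILC against 749 CPM in control, a ratio of 0.143 (0.114 to 0.179). It was at 361.5 CPM in TAA+C7.5 and 205.2 CPM in TAA+C30. Klra8 was also a marker used to name the NK or ILC class, and whether it reads class I molecules was not examined here. Klra1 was at 21.5 CPM in TAA T cells against 129.9 CPM in control. Cd8b1, a chain of the CD8 coreceptor, was at 348 CPM in TAA T cells against 222 CPM in control.

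Class II genes, measured for contrast, differed in a larger share of pairs than the 10 class I genes did. In TAA 42 of 102 pairs were higher than in control (41.2%) and 6 lower (5.88%). In TAA+C7.5 5 of 117 pairs were higher than in TAA (4.27%) and 20 lower (17.1%), and in TAA+C30 1 of 105 was higher (0.952%) and 32 lower (30.5%). H2-Aa in monocytes or macrophages was at 5040 CPM in TAA, 2830 in TAA+C7.5, 2330 in TAA+C30 and 2020 in control. Cd74 in TAA NK or ILC was at 344 CPM against 110.4 CPM in control. Genes of the dissociation response, which rise during tissue handling, also differed, with 47 of 176 pairs higher (26.7%) and 48 lower (27.3%) in TAA than in control. In TAA+C7.5 43 of 192 were higher than in TAA (22.4%) and 14 lower (7.29%), and in TAA+C30 47 of 176 were higher (26.7%) and 23 lower (13.1%). Hspa1b, a heat shock gene, was at 68.8 CPM in TAA B cells, 295.4 CPM in TAA+C7.5, 397 CPM in TAA+C30 and 454 CPM in control. The part of tissue handling in the class I differences was not tested.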

How the data were processed

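Gene by cell matrices of UMI counts were deposited by the authors, 1 per library, made with Cell Ranger 3.1.0 on mm10 per the submitters' processing notes. No column was left unused (0). From these counts, cells with at least 200 genes and at most 20% mitochondrial UMIs were kept, Scrublet (expected rate 5%) removed doublets, and Scanpy 1.11.5 clustered the cells (2000 variable genes, 30 components, 20 neighbours, resolution 1, then a second round within clusters at 0.5). Clusters were named from at least 3 markers of 22 sets, and 7 of 46 stayed unnamed. UMIs were summed per library and class and given as CPM. A pair of a gene and a class was measured with at least 10 UMIs, and called at 1.5-fold on log2(CPM + 10). With 1 mouse per group no test was made. The calculations were tested on simulated data.

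The members and lists were chosen with earlier results of these data known. All 10 members are named. From each list and comparison up to 2 genes with the highest and 2 with the lowest ratio could be named, among those past 1.5-fold with at least 30 UMIs in the higher library, where each library held 100 or more cells of the class. Cd74 in cholangiocytes was chosen after its values were seen, as were values of named genes in other libraries and in clusters. Sequences are from RefSeq (GRCm38.p6), where 8 of the 10 genes matched. There were 15 alternatives, and 2 more were chosen after seeing the data.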

Additional observations from a re-analysis of the deposited data

Results flagged for a closer look

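Ratios of the same gene pointed in opposite directions in different cell classes, each past 1.5-fold, for 4 genes between TAA and control and 1 gene between TAA+C7.5 and TAA, and the differences between classes were not tested. Values are log2 ratios on CPM + 10. For H2-K1 the ratio of TAA over control was 0.72 in neutrophils and -0.74 in Kupffer cells. For H2-T23 it was 0.70 in Kupffer cells and -0.72 in endothelial cells. For Tap2 it was 0.64 in neutrophils and -0.61 in endothelial cells. For Nlrc5 it was 0.91 in Kupffer cells, on 7 UMIs in control, and -0.63 in T cells. For Nlrc5 in TAA+C7.5 over TAA it was 0.63 in plasmacytoid dendritic cells and -0.91 in cholangiocytes, on 10 UMIs in TAA+C7.5.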

How the results depend on the processing

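No paired analysis was possible because each group held 1 mouse. Of the counts of pairs past the limit, 74 values moved by no more than 1.5 times over the alternatives and 16 moved by more. For TAA against control there were 33 higher pairs with trimmed mean scaling, 13 lower with classes from marker scores and 10 lower with cells thinned to 1000 UMIs. At a fold of 2 there were 4 higher and 0 lower in TAA against control, 0 and 0 in TAA+C7.5 against TAA, and 0 and 1 in TAA+C30 against TAA. For TAA+C7.5 against TAA the higher pairs numbered 2 without a mitochondrial limit, 9 with thinned cells, 2 with matched cluster weights and 2 with classes of at least 100 cells. For TAA+C30 against TAA there were 3 lower pairs with marker scores, 3 lower with classes of at least 100 cells and 3 higher with thinned cells. A single called value changed sign: H2-T23 in endothelial cells, TAA against control, was 0.22 with matched cluster weights and -0.72 as reported. Fewer classes were measured at 100 cells, and a fold of 2 is stricter by construction. With marker scores 100 rather than 109 pairs were measured for TAA+C30 against TAA, and the lower pairs of myeloid progenitors were not among them. With matched cluster weights 109 rather than 120 pairs were measured for TAA+C7.5 against TAA. Endothelial cells, with 0 shared clusters, and their higher pairs dropped out there. Otherwise the cause was not tested. Without the Ngp-led neutrophil and Dmbt1-led cholangiocyte clusters, chosen after seeing the data, 17 pairs were higher and 6 lower in TAA against control, 4 and 6 in TAA+C7.5 against TAA, and 1 and 8 in TAA+C30 against TAA. TAA+C7.5 had the lowest median depth, so genes near 10 UMIs there, such as Nlrc5, are the least precise.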
